A study of Mus musculus with 4 samples.

Results

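The 10 genes described here encode the calcium-dependent arm of hypertrophic signaling in the heart. They are the CaM kinase II subunits Camk2a, Camk2b, Camk2d and Camk2g, the calcineurin subunits Ppp3ca, Ppp3cb and Ppp3r1, the calcineurin regulator Rcan1, and the transcription factors Nfatc3 and Nfatc4. They were chosen by gene symbol, and all 10 were found among the 23337 genes of each library. The 4 groups of mice of strain C57BL6/J, each represented by 1 RNA-seq library of whole heart, were PIMT fl/fl and csPIMT-/- at 2 and 6 months of age. The control mice (PIMT fl/fl) carried loxP sites around exons 3 and 4 of the PIMT gene, listed as Tgs1, in all cells. The csPIMT-/- mice carried the same floxed allele together with a Cre recombinase transgene under the α-myosin heavy chain promoter, which deletes PIMT in cardiomyocytes from the late embryonic period onward and leaves the other cells of the heart with the floxed allele. Each library was made from pooled RNA of 5 hearts, of male and female mice, so that no replicate of a group existed and differences among the mice of a pool cannot be seen.

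In a heart muscle cell, calcium that binds calmodulin activates both a phosphatase and a kinase. The phosphatase, calcineurin, is a dimer of a catalytic subunit (Ppp3ca, Ppp3cb or Ppp3cc) and a regulatory subunit (Ppp3r1), and it removes phosphates from NFAT factors, which then enter the nucleus and switch on hypertrophy genes. Rcan1 binds calcineurin and restrains it, and its own transcription from an internal start is driven by NFAT. The kinase, CaM kinase II, is a multimer of α, β, γ or δ subunits, of which δ (Camk2d) prevails in heart; it phosphorylates calcium handling proteins and class IIa histone deacetylases, which then release MEF2 factors.

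The files held normalized counts, reads per gene divided by a size factor that makes the libraries comparable. The libraries held 29823073 to 40705783 reads on genes, with the fewest in the csPIMT-/- library of 2 months. Tgs1, the target of the deletion, had 579.8 normalized counts at 2 months and 816 at 6 months in the controls, against 160.3 and 162.3 in csPIMT-/-. The files give 1 value per gene, so reads on the deleted exons 3 and 4 cannot be viewed apart from the rest. The ratio of csPIMT-/- to control was 0.276 (0.227 to 0.334) at 2 months and 0.199 (0.167 to 0.236) at 6 months. Here and throughout, the range after a ratio is its 95% Clopper-Pearson interval, which covers counting error only and not the spread among mice or pools. Markers of cardiomyocytes were the most abundant of the cell type marker lists in each library. The 5 atrium markers summed to 40742 normalized counts in the control library of 2 months, 121253 in that of 6 months, and 334131 and 349424 in the csPIMT-/- libraries. Most of each sum was Nppa, also a hypertrophy marker, at 38182, 70659, 201180 and 320296 in the same order. Among the 5, Bmp10, a growth factor of the atria, had 5.19, 6296, 8564 and 1079 normalized counts in the same order. The control library of 2 months thus held almost no atrial RNA by this marker. At 6 months Sln, Myl7, Myl4 and Bmp10 were lower in the csPIMT-/- library than in its control (ratios 0.421, 0.467, 0.795 and 0.171). The 4 brown fat markers summed to 1906, 1902, 7741 and 3046 and the 6 lung markers to 1.73, 10.6, 1169 and 18.7 in the same library order, both highest in the csPIMT-/- library of 2 months. In the controls Cidea made up most of the brown fat sum (1889 and 1015), while Adipoq had 5.19 and 453. At 6 months Ucp1, Adipoq and Plin1 were lower in the csPIMT-/- library than in its control (ratios 0.134, 0.657 and 0.399) and Cidea was higher (2.56). The leukocyte markers summed to 3954, 7673, 9555 and 12022, the fibroblast markers to between 73137 and 126993, the endothelial markers to between 34538 and 51240 and the smooth muscle markers to between 27223 and 62287. Of the leukocyte markers, Csf1r (ratios 2.56 and 1.70) and Cd68 (4.05 and 2.16) were higher in csPIMT-/-, while Ptprc (0.533 and 0.443) was lower. The part of these cell types in the results below was not tested.

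In addition, the log2 ratio of csPIMT-/- to control increased across all genes with the GC percentage of their transcripts (Spearman's rho 0.594 over 14975 genes at 2 months and 0.620 over 15041 genes at 6 months). The 10 genes followed this order, with a rho of 0.770 and 0.794, although they are few and share the same libraries. For this reason the ratio of csPIMT-/- to the control of the same age is given below for the 10 genes in 2 forms. It is given as deposited and with its GC trend removed (GC-adjusted). For the other genes the GC-adjusted ratio is given only in part. Where this trend comes from was not tested. For Tgs1, the deleted gene, the adjustment moved the ratios from 0.276 to 0.644 at 2 months and from 0.199 to 0.527 at 6 months. Both adjusted ratios lay within 2-fold.

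**Figure D1:**
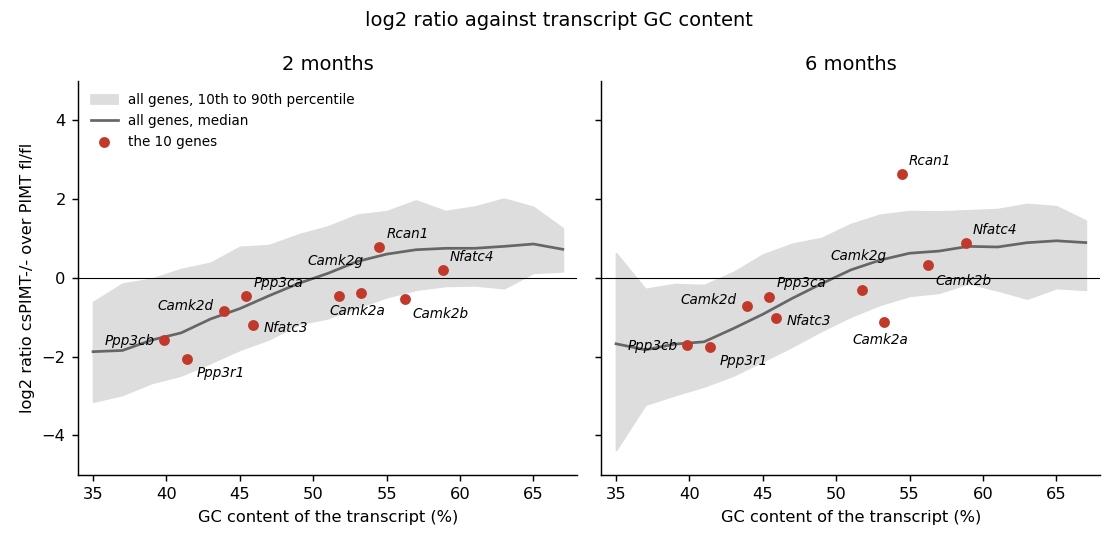
log2 ratio of csPIMT-/- to PIMT fl/fl (vertical axis) against the GC content of the longest coding transcript in percent (horizontal axis) at 2 months (left) and 6 months (right); red points are the 10 genes, the line is the median and the band the 10th to 90th percentile of all genes in windows of GC content. Most of the 10 genes lie inside the band, with the GC-poor Ppp3cb close to the line at both ages, while Rcan1 at 6 months lies above it and Camk2b at 2 months and Camk2a at 6 months below it.

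Across the 10 genes, 3 were past 2-fold lower in the csPIMT-/- library at 2 months (Ppp3cb, Ppp3r1 and Nfatc3) and 0 were past 2-fold higher, where 22.5% of the 15152 genes compared were past 2-fold lower and 17.3% higher. At 6 months 4 were lower (Camk2a, Ppp3cb, Ppp3r1 and Nfatc3) and 1 was higher (Rcan1), against 24.9% and 16.9% of 15218 genes. These shares lie near the background and say nothing particular of the 10 genes. The median log2 ratio of the 10 genes was -0.49 at 2 months and -0.59 at 6 months, with a median of all genes of 0.00 at both. After GC adjustment, 1 gene was past 2-fold lower at each age, Camk2b at 2 months (background 11.2%) and Camk2a at 6 months (background 13%). None was higher at 2 months (background 14.5%), and Rcan1 was past 2-fold higher at 6 months (background 13.6%). The GC-adjusted medians were -0.54 and -0.17. Between the ages, 0 of the 10 genes were past 2-fold in the controls, where 4.65% of genes were lower and 9.01% higher at 6 months. In the csPIMT-/- libraries 1, Rcan1, was past 2-fold higher at 6 months, against a background of 8.2% lower and 9.71% higher. Over all genes, the share of calls that were higher moved with the adjustment from 43.4% to 56.5% at 2 months and from 40.5% to 51.3% at 6 months.

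**Figure D2:**
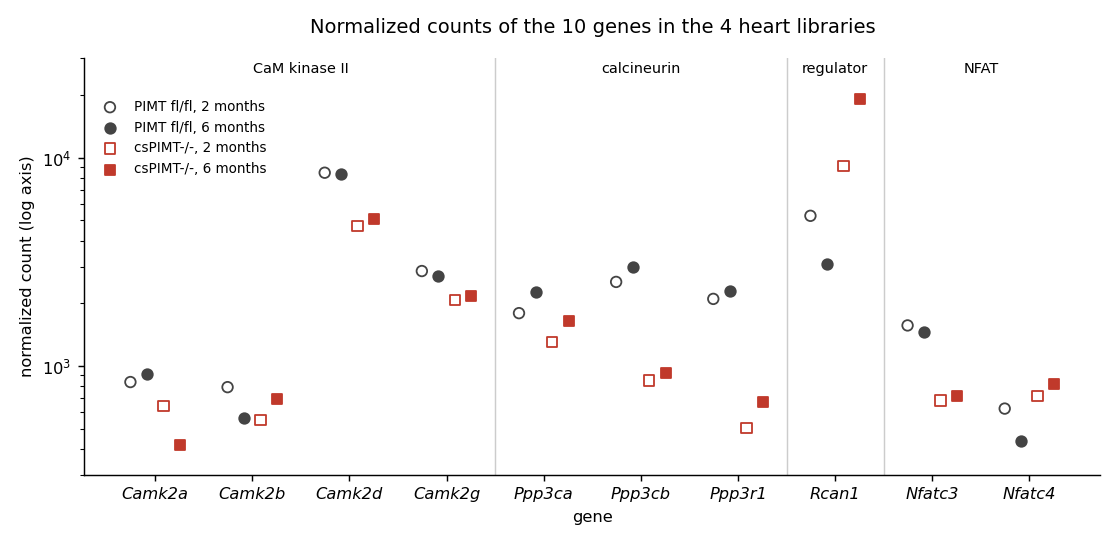
Normalized counts (vertical log axis) of each of the 10 genes (horizontal axis) in the 4 libraries, with 1 point per library; circles are PIMT fl/fl, squares csPIMT-/-, open symbols 2 months and filled symbols 6 months. Both squares lie below both circles for Camk2a, Camk2d, Camk2g, the 3 calcineurin subunits and Nfatc3, and above them for Nfatc4 and Rcan1, whose highest value is 19172. Such separation was common over all genes, at 35.8% lower and 35.1% higher.

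For 7 of the 10 genes both csPIMT-/- values lay below both control values, and for 2 they lay above them. Over the 14935 genes with enough reads for a test the shares were 35.8% and 35.1%, so that with 2 values per genotype a lack of overlap, as given for single genes below, was common.

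The ages served as the only repeat of the genotype contrast, and limma was fitted to all 4 libraries with age as a covariate and 1 residual degree of freedom. The libraries come from separate pools, but each group is a single pool, so these p-values rest on the spread left after age and genotype among 4 libraries. Most of the weight in the variance of a gene came from the mean trend over all genes, with 4.51 prior degrees of freedom. At an adjusted p below 0.05, 17.9% of 14935 genes fell and 12.1% rose. Among the 10 genes 4 fell (Camk2d, Ppp3cb, Ppp3r1 and Nfatc3) and 1 rose (Rcan1). In fits without age that left out 1 library, limma called 0 of these 5 without the control of 6 months (adjusted p from 0.0520 for Ppp3r1 to 0.142 for Camk2d). Without the control of 2 months Camk2d and Nfatc3 were not called, without the csPIMT-/- library of 2 months Camk2d, and without that of 6 months Rcan1. By edgeR's quasi-likelihood test 3 fell and 1 rose, where 16.8% of genes fell and 10.8% rose, and by DESeq2 4 and 1, where the background was 20% and 14.7%. With the GC trend of each library subtracted, limma called 0 genes of 14765 and none of the 10, while 3561 genes, Camk2a and Camk2g among them, had an unadjusted p below 0.05. Without that subtraction but also without the mean trend, limma called 0 genes of 14935 (smallest adjusted p 0.0669).

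Of the CaM kinase II genes, Camk2d held most of the reads in each library and fell in the csPIMT-/- hearts as deposited. Camk2d (chr3:126596302-126846326, plus strand, GRCm38) had 8475 and 8369 normalized counts in the controls, the age of 2 months always first, and 4705 and 5098 in the csPIMT-/- libraries. Both csPIMT-/- values lay below both control values. The ratio was 0.555 (0.535 to 0.576) at 2 months and 0.609 (0.588 to 0.631) at 6 months, and the limma log2 difference was -0.77 (SE 0.20, adjusted p = 0.0404). By edgeR the adjusted p was 0.0529. The transcript is GC-poor (43.9%), and the GC-adjusted ratios were 1.05 and 1.32, with the direction turned.

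Camk2g, which encodes the γ subunit, had 2856 and 2713 normalized counts in the controls and 2074 and 2179 in the csPIMT-/- libraries. The groups did not overlap, and the ratios were 0.726 (0.684 to 0.770) and 0.803 (0.759 to 0.849). The limma log2 difference of -0.38 (SE 0.21) did not pass (adjusted p = 0.210). The GC-adjusted ratios, 0.632 and 0.662, kept the direction.

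Camk2a, the α subunit best known from neurons, was low in heart and was the subunit whose csPIMT-/- values differed most between the ages. It had 837 and 910 normalized counts in the controls, 641 in the csPIMT-/- library of 2 months and 419 in that of 6 months. All the csPIMT-/- values lay below the controls. The ratio was 0.766 (0.687 to 0.853) at 2 months and 0.461 (0.410 to 0.517) at 6 months, and 0.501 (0.445 to 0.563) at 6 months against the control of 2 months. GC adjustment lowered both ratios further, to 0.585 and 0.335. In limma the log2 difference was -0.74 (SE 0.31, adjusted p = 0.118). The 5 neuron markers summed to 169.6 and 249 normalized counts in the controls and 573 and 793 in the csPIMT-/- libraries, most of it from Stmn2 and Tubb3, and their part in the Camk2a values was not tested.

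Camk2b, the β subunit, lay lower in the csPIMT-/- library at 2 months and higher at 6 months as deposited. Its normalized counts were 791 and 559 in the controls and 550 and 697 in the csPIMT-/- libraries, so the groups overlapped. The ratio was 0.695 (0.619 to 0.779) at 2 months and 1.25 (1.12 to 1.39) at 6 months. The GC-adjusted ratios, 0.449 (0.400 to 0.504) and 0.798 (0.715 to 0.891), were below 1 at both ages. The control libraries themselves differed, with a 6 over 2 months ratio of 0.707 (0.638 to 0.783), and against both controls summed the csPIMT-/- ratios were 0.813 and 1.03. The limma log2 difference was -0.09 (SE 0.31, adjusted p = 0.833). The 6 skeletal muscle markers summed to 476 and 119 normalized counts in the controls and 148 and 449 in the csPIMT-/- libraries, with reads for all 6 in every library. The same libraries were highest for these markers and for Camk2b, the control of 2 months and the csPIMT-/- library of 6 months, and the part of the markers in the Camk2b values was not tested.

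Summed over the 4 genes, CaM kinase II reads were lower in the csPIMT-/- libraries, with a ratio of 0.615 (0.597 to 0.633) at 2 months and 0.669 (0.651 to 0.687) at 6 months. Camk2d made up 65.4% and 66.7% of them in the controls and 59.0% and 60.7% in the csPIMT-/- libraries. The share of Camk2g went from 22.0% and 21.6% to 26.0% at both ages. This total and these shares were not GC-adjusted. With the adjustment the ratios were 1.05 and 1.32 for Camk2d and 0.632 and 0.662 for Camk2g, so that their order turned. Per kilobase of the longest coding transcript Camk2d stood first in each library, at 44.5, 42.3, 23.2 and 24.5 RPKM, followed by Camk2g at 22.4, 20.5, 15.2 and 15.6 RPKM. When the length of all annotated exons was used instead, Camk2g stood above Camk2d, so their order depends on the transcripts assumed. Camk2a and Camk2b lay between 2.24 and 5.70 RPKM and changed places between libraries.

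The calcineurin subunits Ppp3r1 and Ppp3cb gave the lowest ratios of the 10 genes as deposited. Ppp3r1 (chr11:17159263-17200375, plus strand, GRCm38), the regulatory subunit that binds calcium, had 2099 and 2279 normalized counts in the controls and 503 and 673 in the csPIMT-/- libraries. The groups stood far apart, with every csPIMT-/- value below every control value. The ratio was 0.240 (0.215 to 0.266) at 2 months and 0.295 (0.271 to 0.322) at 6 months, with a limma log2 difference of -1.90 (SE 0.24, adjusted p = 0.0122). GC-adjusted, the ratios were 0.587 and 0.817, in the same direction but within 2-fold. Of its stretches of 50 bases, the read length, 14.7% also occur in Wdr92, a neighbor that overlaps it on the same strand, so a part of its reads may be assigned to either gene or dropped.

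Ppp3cb, the β catalytic subunit, stood lower by about the same factor at both ages. It had 2533 and 2996 normalized counts in the controls against 853 and 923 in the csPIMT-/- libraries, without overlap. The ratio was 0.337 (0.310 to 0.366) at 2 months and 0.308 (0.286 to 0.332) at 6 months, and limma gave a log2 difference of -1.62 (SE 0.22, adjusted p = 0.0124). Its transcript has the lowest GC content of the 10 genes, 39.8%, and the GC-adjusted ratios were 0.958 (0.881 to 1.04) and 0.955 (0.886 to 1.03). The deposited difference was thus no larger than that of other genes of the same GC content.

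Ppp3ca, the α catalytic subunit, differed less. Its normalized counts were 1793 and 2276 in the controls and 1306 and 1641 in the csPIMT-/- libraries, with no overlap between the groups. The ratio was 0.728 (0.676 to 0.785) at 2 months and 0.721 (0.677 to 0.768) at 6 months, and Ppp3ca was higher at 6 than at 2 months by 1.27 (1.20 to 1.35) in the control and 1.26 (1.16 to 1.36) in the csPIMT-/- libraries. The limma log2 difference of -0.46 (SE 0.21) did not pass (adjusted p = 0.157), and the GC-adjusted ratios of 1.18 and 1.28 lay in the other direction.

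Ppp3cc, the third catalytic subunit, had ratios of 1.08 (0.992 to 1.16) and 1.33 (1.24 to 1.42) and did not pass the limma test (adjusted p = 0.403). The make-up of the catalytic subunits therefore differed. Ppp3cb accounted for 45.6% and 45.3% of their reads in the controls and for 24.6% and 21.2% in the csPIMT-/- libraries. Ppp3cc went from 22.0% and 20.4% to 37.9% and 41.1%. A share within a library does not depend on library scaling, but it does depend on GC content, and Ppp3cc (49.8%) has more of it than Ppp3cb. As deposited, the total over the 3 catalytic genes had a ratio of 0.626 (0.599 to 0.655) at 2 months and 0.657 (0.632 to 0.682) at 6 months. No GC-adjusted total was taken. The GC-adjusted ratios of the single genes were 1.18 and 1.28 for Ppp3ca, 0.958 and 0.955 for Ppp3cb, and 1.12 and 1.35 for Ppp3cc. None of these was as low as the deposited total.

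**Figure D3:**
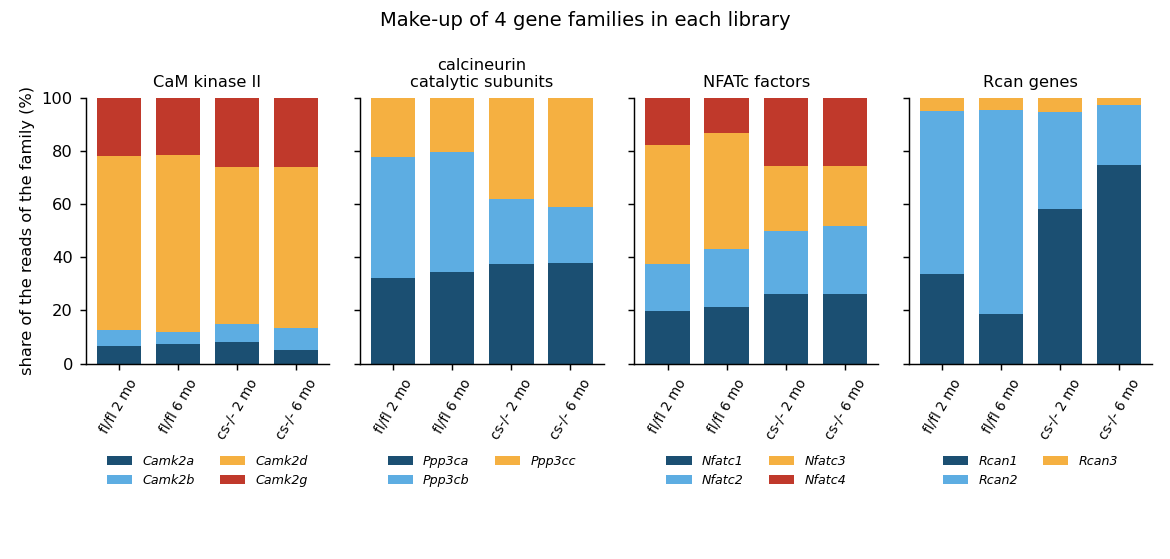
Share of the reads of a gene family (vertical axis, percent) taken by each member gene in the 4 libraries (bars, with fl/fl for PIMT fl/fl, cs-/- for csPIMT-/- and mo for months) for CaM kinase II, the calcineurin catalytic subunits, the NFATc factors and the Rcan genes. Camk2d, Ppp3cb, Nfatc3 and Rcan2 take smaller shares in both csPIMT-/- libraries than in both controls, and Rcan1 takes 58.0% and 74.9% of the Rcan reads. The shares are not GC-adjusted.

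Rcan1 was the gene of the 10 that rose. It lies on the minus strand of chromosome 16 (chr16:92391953-92470867, GRCm38) and has 2 starts in RefSeq (GRCm38.p6), 66091 bases apart. The upstream start begins the long transcripts and the internal start the short ones, of which the latter are known to respond to calcineurin. The 250 bases before each start are shown because these genes encode the NFAT pathway, with capitals marking the NFAT core motif GGAAA on the gene strand or TTTCC, the same motif on the other strand. The windows are chr16:92466170-92466419 and chr16:92400079-92400328, minus strand.

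Rcan1, before the upstream start: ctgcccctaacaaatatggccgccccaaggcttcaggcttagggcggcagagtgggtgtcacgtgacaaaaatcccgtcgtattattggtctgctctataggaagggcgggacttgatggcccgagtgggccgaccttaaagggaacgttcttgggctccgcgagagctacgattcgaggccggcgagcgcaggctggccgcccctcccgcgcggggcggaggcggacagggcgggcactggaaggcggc

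Rcan1, before the internal start: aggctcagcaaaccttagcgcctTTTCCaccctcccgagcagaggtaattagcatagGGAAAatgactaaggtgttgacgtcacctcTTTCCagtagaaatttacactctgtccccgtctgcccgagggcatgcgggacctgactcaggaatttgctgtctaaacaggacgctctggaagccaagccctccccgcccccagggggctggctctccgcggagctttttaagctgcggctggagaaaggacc

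The upstream window holds 0 of these motifs and the internal one 3, of which 1 is on the gene strand. Of 32851 windows of the same length before annotated starts, 55.6% hold at least 1 and 6.39% at least 3, and a match is a run of letters and not evidence of binding. Since the files give 1 value for all the transcripts of a gene, the starts cannot be told apart in the counts.

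Rcan1 had 5262 normalized counts in the control of 2 months and 3076 in that of 6 months, against 9141 and 19172 in csPIMT-/-. Both csPIMT-/- values lay above both controls. The ratio was 1.74 (1.68 to 1.80) at 2 months and 6.23 (6.01 to 6.46) at 6 months, larger at 6 months than that of 97.7% of genes compared. In limma the log2 difference was 1.73 (SE 0.43, adjusted p = 0.0362), and the adjusted p in the fits without age was 0.0742 without the csPIMT-/- library of 6 months and 0.110 without the control of 6 months, where the log2 difference was 1.33.

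The size of the Rcan1 difference at 6 months depended partly on its control. Between the controls Rcan1 was lower at 6 months, with a ratio of 0.584 (0.561 to 0.609), whereas in the csPIMT-/- libraries it was higher at 6 months by 2.10 (2.04 to 2.15). Against the control of 2 months the csPIMT-/- library of 6 months gave a ratio of 3.64, and against both controls summed 4.59. The csPIMT-/- library of 2 months gave 2.97 against the control of 6 months. With the GC trend subtracted the ratios were 1.22 at 2 months and 4.25 at 6 months, the latter above 96.1% of genes. The ratio at 6 months was 3.59 (3.41 to 3.77) times that at 2 months, an interval of counting error that says nothing of the spread among pools.

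Per kilobase of transcript Rcan1 was the highest of the 10 genes in 3 of the 4 libraries, with 65.7 and 37.0 RPKM in the controls and 107 and 219 RPKM in the csPIMT-/- libraries. Only in the control of 6 months did Camk2d, at 42.3 RPKM, stand above it, and on the length of all annotated exons Rcan1 stood first there too, at 27.8 RPKM against 10.4 for Camk2d. Of the atrium markers, all 5 were, like Rcan1, higher in the csPIMT-/- library at 2 months and 1 of them, Nppa, also at 6 months. Myl7, an atrial myosin light chain, had 1045 and 17299 normalized counts in the controls and 42908 and 8084 in the csPIMT-/- libraries. The part of atrial RNA in the Rcan1 values was not tested.

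Rcan2, a sister gene of Rcan1 with a like inhibitory action on calcineurin, fell. It had 9647 and 12792 normalized counts in the controls and 5776 and 5722 in the csPIMT-/- libraries, with ratios of 0.599 (0.579 to 0.620) and 0.447 (0.434 to 0.461) and a limma log2 difference of -0.94 (SE 0.23, adjusted p = 0.0326). Its GC-adjusted ratios were 0.925 and 0.744. As deposited, the total over Rcan1, Rcan2 and Rcan3 had a ratio of 1.005 (0.982 to 1.03) at 2 months and 1.54 (1.51 to 1.57) at 6 months. Rcan1 took 33.6% and 18.5% of these reads in the controls, 58.0% in the csPIMT-/- library of 2 months and 74.9% in that of 6 months.

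**Figure D4:**
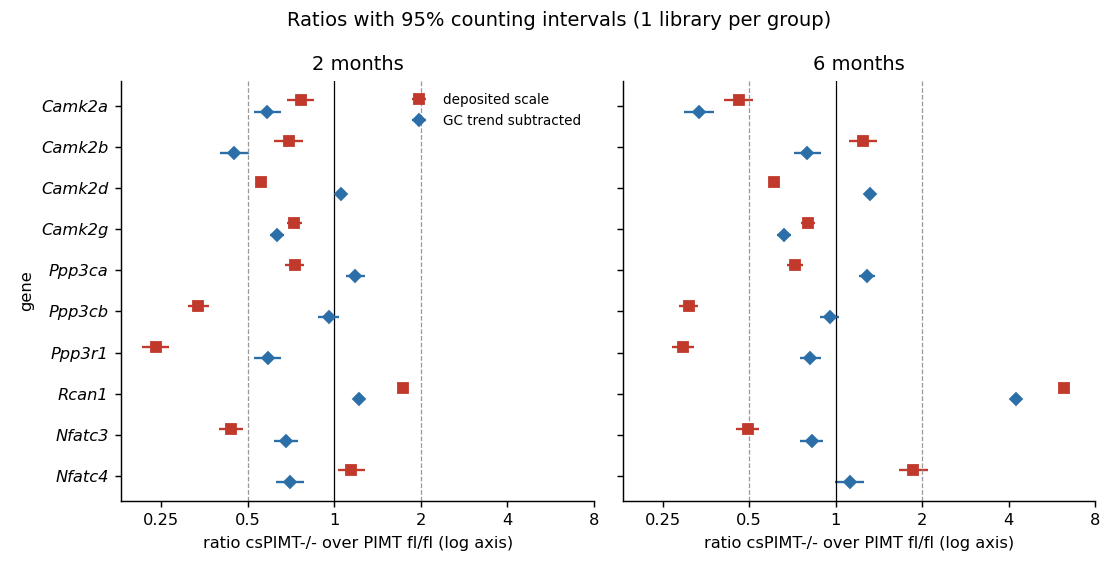
Ratio of csPIMT-/- to PIMT fl/fl (horizontal log axis) of the 10 genes (vertical axis) at 2 months (left) and 6 months (right), with 1 library per group; squares are ratios as deposited, diamonds those with the GC trend subtracted, bars are 95% counting intervals and dashed lines mark 2-fold. The GC adjustment moved Ppp3cb from 0.337 and 0.308 to 0.958 and 0.955, while Rcan1 at 6 months stayed past 2-fold, at 6.23 and 4.25.

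Nfatc3 and Nfatc4, the NFAT factors most often linked to cardiac hypertrophy, differed in opposite directions as deposited. Nfatc3 (chr8:106058840-106130537, plus strand, GRCm38) had 1565 and 1458 normalized counts in the controls and 684 and 721 in the csPIMT-/- libraries, without overlap. The ratio was 0.437 (0.397 to 0.481) at 2 months and 0.494 (0.452 to 0.541) at 6 months, just past the 2-fold limit at the latter age. The limma log2 difference was -1.09 (SE 0.24, adjusted p = 0.0257). The GC-adjusted ratios of 0.678 and 0.826 kept the direction.

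Nfatc4 had 624 and 438 normalized counts in the controls and 716 and 817 in the csPIMT-/- libraries. The csPIMT-/- values lay above both controls, but the controls differed among themselves too, with a 6 over 2 months ratio of 0.702 (0.625 to 0.788). The ratio of csPIMT-/- to control was 1.15 (1.03 to 1.28) at 2 months and 1.86 (1.66 to 2.09) at 6 months, the latter just inside the 2-fold limit, and 1.54 at 6 months against both controls summed. The limma log2 difference of 0.56 (SE 0.30) did not pass (adjusted p = 0.198). The transcript is the most GC-rich of the 10 genes (58.8%), and the GC-adjusted ratios were 0.702 and 1.12, so that the direction at 2 months turned.

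Within the NFATc family, Nfatc3 took 44.8% and 43.9% of the reads in the controls and 24.5% and 22.7% in the csPIMT-/- libraries. Nfatc4 took 17.9% and 13.2% in the controls and 25.6% and 25.7% in the csPIMT-/- libraries. Nfatc1 and Nfatc2, the other calcium-regulated members, had ratios between 1.07 and 1.18 and did not pass the test (limma adjusted p = 0.619 and 0.691). Nfat5, which responds to osmotic stress and not to calcineurin, fell, with ratios of 0.385 (0.359 to 0.414) and 0.428 (0.403 to 0.454) and a limma adjusted p of 0.0154. Its GC-adjusted ratios were 0.821 and 1.05. As deposited, the total over the 4 NFATc genes had a ratio of 0.800 (0.760 to 0.843) at 2 months and 0.957 (0.912 to 1.004) at 6 months.

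RefSeq windows before a start were found for 7 of the 10 genes; Camk2a, Camk2g and Ppp3ca had no entry. Besides the internal start of Rcan1, the genes whose window held 3 motifs were Ppp3cb (chr14:20546574-20546823, minus strand) and Nfatc4 (chr14:55824545-55824794, plus strand). They are shown as the windows of a gene that fell as deposited and of one with higher values that did not pass the test, with the same use of capitals.

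Ppp3cb: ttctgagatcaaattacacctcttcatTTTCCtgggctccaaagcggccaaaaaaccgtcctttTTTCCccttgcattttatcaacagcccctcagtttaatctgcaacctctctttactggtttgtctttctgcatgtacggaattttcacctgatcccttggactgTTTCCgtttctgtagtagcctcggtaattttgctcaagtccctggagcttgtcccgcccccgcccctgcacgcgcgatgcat

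Nfatc4: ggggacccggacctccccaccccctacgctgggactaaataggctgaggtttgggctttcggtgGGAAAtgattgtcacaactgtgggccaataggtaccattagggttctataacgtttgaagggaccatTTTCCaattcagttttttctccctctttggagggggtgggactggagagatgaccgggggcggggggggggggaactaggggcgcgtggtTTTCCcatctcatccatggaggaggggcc

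Camk2d had 1 such motif, Nfatc3 1 and 0 before its starts, and Camk2b and Ppp3r1 0. A role of these motifs in the values of the genes was not tested.

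The wider calcium pathway was followed in 52 genes in 9 lists, of which 51 had reads and Ppp3r2, the testis form of the regulatory subunit, was listed at 0. At 2 months 12 of the 50 genes compared were past 2-fold lower and 7 past 2-fold higher, where the share over all genes was 22.5% and 17.3%. At 6 months these were 12 and 13 of 51, where it was 24.9% and 16.9%. Past 2-fold in the same direction at both ages were 10 lower and 6 higher genes, for which the share over all genes was not counted. In limma 11 of 50 fell and 7 rose, beside 17.9% and 12.1% of all genes. The counts with a share beside them say nothing particular of these genes. The median log2 ratio of these genes was 0.10 at 2 months and 0.17 at 6 months. After GC adjustment, 5 were past 2-fold lower at each age, where the share over all genes was 11.2% at 2 months and 13% at 6 months. Past 2-fold higher were 6 and 8, where it was 14.5% and 13.6%.

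Of the genes for calmodulin, the calcium sensor above both enzymes, Calm2 fell. It had 4148 and 4512 normalized counts in the controls and 1544 and 1502 in the csPIMT-/- libraries, with ratios of 0.372 (0.349 to 0.396) and 0.333 (0.314 to 0.353) and a limma adjusted p of 0.0126. Calm3 had 10144 and 8490 normalized counts in the controls and 11221 and 14351 in the csPIMT-/- libraries. Its ratios of 1.11 (1.08 to 1.14) and 1.69 (1.65 to 1.74) did not pass (limma adjusted p = 0.192). GC-adjusted, the ratios were 0.801 and 0.822 for Calm2 and 0.682 and 1.02 for Calm3. Of the 50-base stretches of Calm2, 12.7% occur in other genes, mostly unnamed gene models.

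Of the other calcineurin subunits, partners and inhibitors, 2 of 10 fell (Rcan2 and Akap5) and 1 rose (Cib1). Akap5, which anchors calcineurin at membranes, had the lowest ratio. It had 287 and 633 normalized counts in the controls and 22.2 and 2.08 in the csPIMT-/- libraries, the last from 2 reads. The ratios were 0.0773 (0.0452 to 0.124) and 0.00329 (0.000397 to 0.0119), and 0.146 and 0.00707 after GC adjustment, with a limma adjusted p of 0.0180. Fhl2, a LIM protein that binds calcineurin and the gene of this list with the most reads, had ratios of 0.745 and 0.679 and did not pass (limma adjusted p = 0.212).

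Among the NFAT kinases, which send NFAT back out of the nucleus, 2 of 6 fell, Dyrk1a and Csnk1a1. Csnk1a1 had ratios of 0.366 and 0.528 and a limma adjusted p of 0.0208, with GC-adjusted ratios of 0.747 and 1.24.

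The CaM kinase II inhibitors were past 2-fold higher at 6 months as deposited. Camk2n2 had 19.9 and 18.5 normalized counts in the controls and 53.0 and 99.9 in the csPIMT-/- libraries, with ratios of 2.66 (1.57 to 4.63) and 5.41 (3.35 to 9.13) and a limma adjusted p of 0.0670. Camk2n1 had 523 and 459 normalized counts in the controls and 415 and 1214 in the csPIMT-/- libraries (limma adjusted p = 0.382). GC-adjusted, the ratios were 1.52 and 3.06 for Camk2n2 and 0.587 and 1.87 for Camk2n1.

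Of the other CaM kinases, Camk1 rose, with ratios of 1.62 and 1.70 (limma adjusted p = 0.0440) and GC-adjusted ratios of 1.09 and 1.12. Camkk1, a kinase that activates it, had ratios of 2.02 and 2.19 (limma adjusted p = 0.0536) and GC-adjusted ratios of 1.39 and 1.47.

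Downstream of CaM kinase II, Hdac9, a class IIa histone deacetylase, and the factors Mef2a and Mef2c fell. Hdac9 had 1419 and 1812 normalized counts in the controls and 369 and 381 in the csPIMT-/- libraries, with ratios of 0.260 (0.229 to 0.294) and 0.210 (0.188 to 0.235) and a limma adjusted p of 0.0122. It stayed past 2-fold lower after GC adjustment, at 0.441 and 0.396. Mef2c had ratios of 0.310 and 0.364 and Mef2a 0.350 and 0.356, which became 0.805 and 1.05, and 0.809 and 0.939, after GC adjustment. Hdac5, the most abundant of this list, had ratios of 1.43 and 1.53 and did not pass (limma adjusted p = 0.0820).

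Of the channels that let calcium in, Trpc1 had ratios of 0.493 (0.414 to 0.584) and 0.451 (0.382 to 0.530) and Trpc6 ratios of 0.303 (0.192 to 0.462) and 0.416 (0.269 to 0.629). Neither passed the test (limma adjusted p = 0.0530 and 0.0846). Stim1, which gates store-operated entry, had ratios of 1.40 and 2.91 (limma adjusted p = 0.0562). GC-adjusted, the ratios were 0.821 and 0.829 for Trpc1, 0.455 and 0.666 for Trpc6, and 0.983 and 1.98 for Stim1.

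The hypertrophy marker genes stood highest, and 5 of 6 rose. Nppb, which encodes brain natriuretic peptide, had 14917 and 9405 normalized counts in the controls and 37044 and 80691 in the csPIMT-/- libraries. Its ratios of 2.48 and 8.58 and those of Rcan1 were both larger at 6 months. Myh7, the β-myosin heavy chain, had ratios of 4.18 and 47.2 (limma adjusted p = 0.0226). Nppa, which encodes atrial natriuretic peptide and is at the same time an atrium marker, had ratios of 5.27 and 4.53, and Acta1, the skeletal α-actin of the fetal heart, 5.35 and 3.88. Myh6, the α-myosin heavy chain, had ratios of 0.993 and 0.769 and did not pass (limma adjusted p = 0.811). In whole-heart RNA, fewer cells of a type and less RNA per cell cannot be told apart, and this holds for all the genes above. The summed cardiomyocyte markers were 1297880 and 1241510 normalized counts in the controls and 1217690 and 941079 in the csPIMT-/- libraries.

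**Figure D5:**
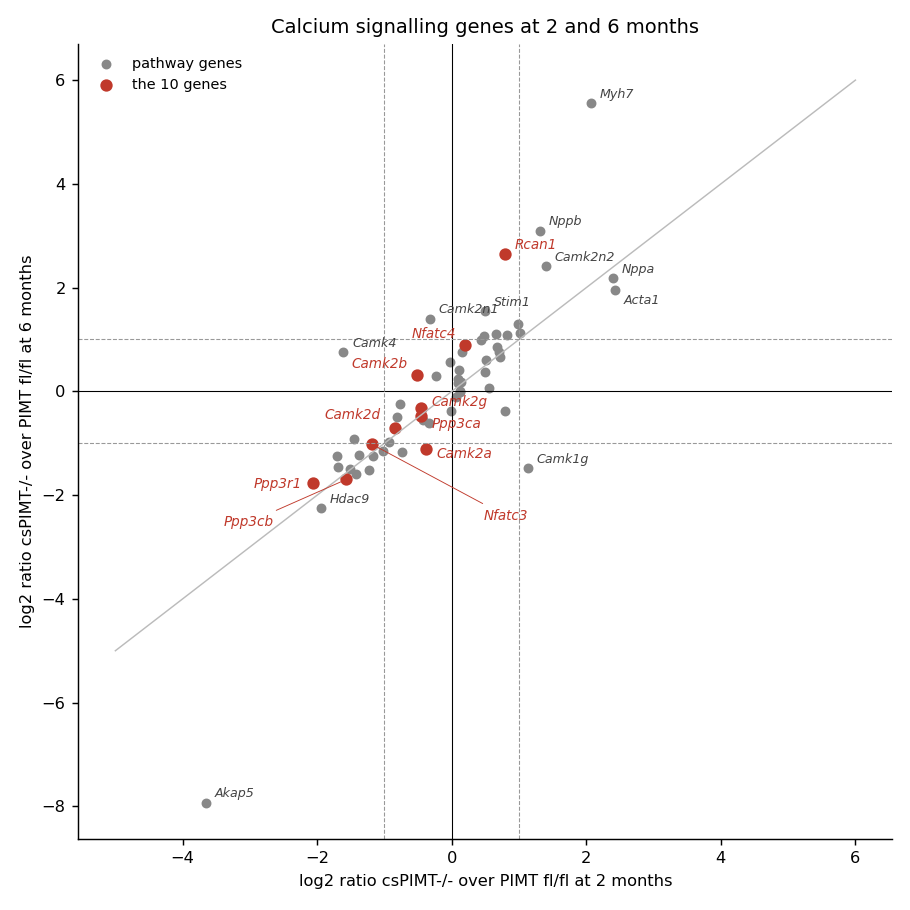
log2 ratio of csPIMT-/- to PIMT fl/fl at 6 months (vertical axis) against that at 2 months (horizontal axis) for the 10 genes (red) and the pathway genes (grey), 1 point per gene; the grey diagonal marks equal ratios and dashed lines mark 2-fold. Ppp3r1, Ppp3cb and Nfatc3 lie past 2-fold lower at both ages, Rcan1 lies above the diagonal beside Nppb, and Camk2b, Camk4, Camk1g and Camk2n1 lie in the quadrants of opposite direction.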

How the data were processed

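Per the labels and the study's methods, RNA of 5 hearts per group was pooled and sequenced as single-end reads of 50 bases with a directional mRNA kit. The authors used STAR for alignment to mm10, obtained read counts by gene from htseq-count (HTSeq 0.6.1p1 in the submitters' processing notes) under a UCSC annotation, and tested with DESeq2. The strand setting of the counting is not given in the sources used here. The deposited values are a signal, normalized counts, of which 100% were whole multiples of the value of 1 read within 0.001 reads. Whole reads were recovered by dividing by that value, and median-of-ratios factors of these reads gave the deposited scale back. The column of the csPIMT-/- library of 6 months is headed as read counts but holds normalized counts like the others.

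Ratios of csPIMT-/- to the PIMT fl/fl library of the same age were taken for genes with at least 10 reads in 1 of both libraries, on the deposited scale, with 0.5 reads added for log2 values. A gene was called past 2-fold below a ratio of 0.5 or above 2, without a test. For GC content the longest coding transcript in GENCODE M21 was used (GRCm38, the build of mm10), found by symbol for 98.0% of genes, and the trend was a lowess curve with a span of 0.3. RPKM used the length of the same transcript. limma (3.58.1) was fitted to log2(TMM-scaled reads + 1) with age, genotype and a mean trend, with Benjamini-Hochberg adjustment over all genes. edgeR (4.0.16) and DESeq2 (1.42.0) on the recovered reads were alternatives. The 10 genes and all lists were chosen with earlier results of these data known. The named pathway genes were those past 2-fold in the same direction at both ages and the gene with the most reads in each list. Other genes were named after their values were seen. They were the remaining members of the families (Ppp3cc, Rcan2, Rcan3, Nfatc1 and Nfatc2), Cib1, Dyrk1a and the genes that differed in direction between the ages. Some genes of the pathway lists count in the totals of these lists but are not reported here by name.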

Additional observations from a re-analysis of the deposited data

Results flagged for a closer look

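As deposited, the ratio of csPIMT-/- to PIMT fl/fl of some genes lay on opposite sides of 1 at the 2 ages, with counting intervals that excluded 1 at both. Among the 10 genes this held for Camk2b only, and among the calcium pathway genes for Camk2n1, Camk1d, Camk1g, Camk4 and Hdac7. The share over all genes was not counted. Over the cell type marker lists it held for 17 of the 37 genes compared at both ages, of which only Bmp10 and Myl7 are given here. Sln, Myl4, Ucp1, Adipoq and Plin1, whose ratios at 6 months are given above, were also among the 17. Their ratios at 2 months were above 1. Each ratio rests on 1 library per group, and the difference between the ages was not tested.

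Camk2b, a CaM kinase II subunit, had ratios of 0.695 (0.619 to 0.779) at 2 months and 1.25 (1.12 to 1.39) at 6 months. Camk2n1, which encodes an inhibitor of CaM kinase II, had 0.795 (0.694 to 0.910) and 2.64 (2.38 to 2.94). Camk1d went the other way, from 1.73 (1.47 to 2.03) to 0.764 (0.670 to 0.871). Camk1g likewise went from 2.19 (1.87 to 2.58) to 0.358 (0.284 to 0.448). Camk4, with few reads, had 0.321 (0.181 to 0.540) and 1.69 (1.08 to 2.68). Hdac7, a class IIa histone deacetylase, had 0.850 (0.799 to 0.904) and 1.23 (1.16 to 1.31). Of the atrium markers, Bmp10 had 1649.5 (757 to 4496) and 0.171 (0.160 to 0.183), and Myl7 41.05 (38.8 to 43.5) and 0.467 (0.455 to 0.480). GC-adjusted, the ratios no longer lay on opposite sides of 1 for Camk2b (0.449 and 0.798), Hdac7 (0.519 and 0.739) and Camk1d (2.41 and 1.11). They stayed on opposite sides for Camk2n1, Camk1g, Camk4, Bmp10 and Myl7.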

How the results depend on the processing

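Over 5 alternatives of scaling, GC content and control library, the values of the 10 genes past 2-fold kept their direction in 40 of 40 cases and stayed past 2-fold in 33 of 40, and all member values kept their direction in 93 of 100. TMM and total reads scaling moved the median log2 ratio of all genes at 2 months by only 0.0166 and -0.0925. At 6 months they moved it by -0.0291 and -0.0720, so they could not turn a value past 2-fold. With the GC trend subtracted, only Camk2a and Rcan1 at 6 months stayed past 2-fold among these values. Direction was counted by the sign alone, and the GC-adjusted intervals of Ppp3cb, 0.881 to 1.04 and 0.886 to 1.03, included 1. With the GC trend subtracted, the members past 2-fold lower were 1 at each age, the genes past 2-fold lower 1674 at 2 months and 1949 at 6 months, and the median log2 ratio of the members at 6 months -0.17. Against the control of the other age 1 member was higher at 2 months (Rcan1) and the median there was -0.65, and against both controls summed 1 member was higher. Scaling to total reads gave a median of -0.67 at 6 months, and a minimum of 100 reads gave 1724 genes past 2-fold higher at 2 months.

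In limma, subtracting the GC trend left 0 genes lower and 0 higher, and 0 of the members in either direction, with 3561 genes and 2 members at an unadjusted p below 0.05, and the log2 differences of Camk2d (0.25), Ppp3ca (0.31) and Nfatc4 (-0.17) turned direction. Without a mean trend of the variance the counts were also 0, with 5934 genes and 5 members at an unadjusted p below 0.05. By comparison edgeR called 2508 and 1619 genes and DESeq2 2994 and 2201. Leaving out 1 library, which needs a fit without age, gave 147 to 2651 genes lower, 182 to 1273 higher, 0 to 4 members lower and 0 to 1 higher. Without the PIMT fl/fl library of 2 months 1089 genes fell and 187 rose, with 2 members lower and 1 higher. Without that of 6 months 147 fell and 182 rose, and limma called 0 of the 10 genes, although 5 had an unadjusted p below 0.05. Without the csPIMT-/- library of 6 months 957 genes rose and Rcan1 was not called. Without the PIMT fl/fl library of 2 months the log2 difference of Camk2b was 0.15 and without the csPIMT-/- library of 2 months 0.011, both turned. In each such fit the lone library of a genotype was assumed to vary like the others. The cause was not tested for any of these. The labels give no replicate numbers, and age as a covariate is the term that pairs the libraries. Without it, limma called 2691 genes lower and 1962 higher, and 4 and 1 of the members. Depth limited genes such as Camk2n2, Akap5 and Camk4, with fewer than 100 reads in 1 or more libraries.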
